A study of Arabidopsis thaliana with 12 samples.

Results

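The comparison described here sets 3 libraries of the *tmt2* mutant (*tmt2-L-Suc*) against 3 libraries of the wild type (WT-Suc), all from seedlings grown with 1% sucrose in 1/2 MS media. These 6 of the 12 libraries of the series were chosen by the genotype and the treatment in their labels. Both groups are Columbia-0 *Arabidopsis thaliana* of the same age (5 days in the labels, the fourth day post-germination in the study's text), and both were fed sucrose, so the knockout of *TMT2* is the only difference that the labels give. The mutant is 1 T-DNA line, SAIL_124_H03, which is homozygous and carries its insertions in the last exon of *TMT2*. The labelled tissue is the shoot. The other 6 libraries are *tmt2* (*tmt2-S*) and the WT (WT) on 1/2 MS media without sucrose. *tmt2-S* was collected at 7 days in the labels and on the sixth day post-germination in the study's text, so that comparison includes age, which the one with sucrose does not. In the study, *tmt2-L* names mutant seedlings that form true leaves and *tmt2-S* those that do not. How seedlings were picked for the *tmt2-L-Suc* libraries, how many were pooled and at which hour they were harvested is not given in the sources used here, and nothing says that the replicates came from separate plates, so the p-values below measure only the spread between these libraries.

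TMT2 is a monosaccharide transporter of the tonoplast, the membrane around the vacuole, and moves hexoses such as glucose and fructose from the cytosol into the vacuole in exchange for protons. Plant cells read their sugar status in part through the kinase SnRK1, which is active when sugar is short and raises a set of starvation genes, and through hexokinase and TOR signalling, which are active when sugar is ample. Sugar status also touches the clock, auxin-driven growth, nutrient uptake and defence. Genes of these and other processes were grouped into lists here, which were chosen with earlier results of these data known.

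The total expected count, which is RSEM's estimate of the reads of all genes, lay between 21022762 and 21370053 in *tmt2-L-Suc* and between 20187961 and 20650742 in WT-Suc. Among the 6 libraries alone, the first principal component (63.3% of the variance) placed *tmt2-L-Suc* at 41.9 to 60.2 and WT-Suc at -66.7 to -27.4. WT-Suc replicate 1 stood apart from the other WT-Suc libraries on the second component, with 48.1 against -9.86 and -27.4. The groups thus separated on the axis of largest spread. The shoot label was checked with 6 genes of green tissue, none of which changed at an adjusted p ≤ 0.05. *LHCA1*, a light-harvesting protein of photosystem I, had 8661 to 10376 FPKM (fragments per kilobase of transcript, scaled to the depth of the library) in *tmt2-L-Suc* and 11093 to 14525 in WT-Suc. Of 12 root genes, 6 had enough counts to be tested and 1 changed: *PYK10*, a beta-glucosidase of roots and hypocotyls, had 906 to 954 FPKM in *tmt2-L-Suc* against 512 to 724 in WT-Suc. The root hair genes *COBL9*, *EXPA7*, *RSL4* and *RHD6* were at or near 0 in all 6 libraries. In bulk tissue, fewer cells of a type and less RNA per cell cannot be told apart.

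Of 18506 genes tested with edgeR's quasi-likelihood test, 3790 (20.5%) had an adjusted p ≤ 0.05, and such genes are called changed below; 1859 (10%) rose and 1931 (10.4%) fell in the mutant. A differentially expressed gene (DEG) also has |log2FC| ≥ 1.2, where log2FC is the log2 fold change of *tmt2-L-Suc* over WT-Suc. The 794 DEGs that were higher made up 4.29% of the genes tested and the 539 that were lower 2.91%, and more than 4-fold differences were found for 297 of the higher and 209 of the lower DEGs. The groups did not overlap in FPKM for 1292 of the DEGs, against 38.8% of all genes tested. Without WT-Suc replicate 2, the DEGs numbered 830, of which 807 were among the 1333 found with all libraries, and without WT-Suc replicate 1 they numbered 1717.

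*TMT2* (AT4G35300, chromosome 4 from 16795775 to 16799823 of TAIR10.1) was not lower in the mutant libraries. It had 24.8, 10.8 and 15.97 FPKM in *tmt2-L-Suc*, against 11.4, 7.33 and 8.61 FPKM in WT-Suc, with a log2FC of 0.86 (SE 0.23, adjusted p = 0.0235). The groups overlapped, since *tmt2-L-Suc* replicate 2 lay below WT-Suc replicate 1. The call was lost without any one of WT-Suc replicate 2, WT-Suc replicate 3, *tmt2-L-Suc* replicate 1 and *tmt2-L-Suc* replicate 3, where the log2FC was 0.73, 0.83, 0.55 and 0.92. The study describes that transcript upstream of the insertions is still made in the line, and reads from it count towards the gene, so this level does not check the knockout label. Of the 12 tonoplast sugar transporters, *TMT2* was the 1 that changed. *TMT1*, a related tonoplast transporter, had 3.12 to 5.02 FPKM in *tmt2-L-Suc* and 3.74 to 7.02 in WT-Suc (log2FC -0.30, adjusted p = 0.331), and *TMT3* was below 0.5 FPKM in all 6 libraries. The glucose exporter *ERDL6* (log2FC 0.03), the fructose facilitators *SWEET16* (-0.90, adjusted p = 0.0765) and *SWEET17* (0.05) and the vacuolar *SWEET2* (0.24) did not pass the test.

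**Figure D1:**
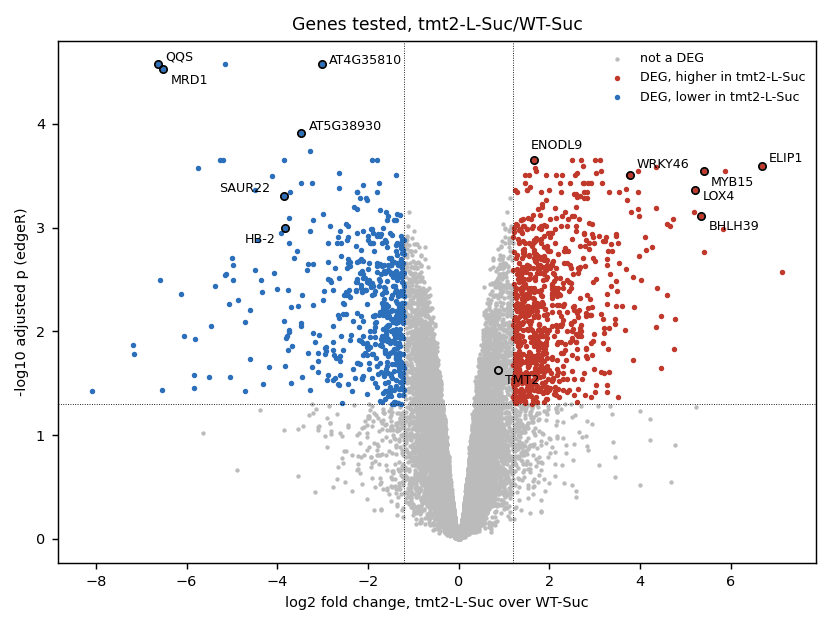
Each point is 1 of the 18506 genes tested, with the log2FC of *tmt2-L-Suc* over WT-Suc on the horizontal axis and -log10 of the adjusted p on the vertical axis. DEGs that were higher (794) are red and those that were lower (539) blue, dotted lines mark the thresholds, and circled genes are named in the text; *TMT2* lies among the genes that changed by less than the DEG threshold.

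Among DEGs with more than 3 counts in each of the 6 libraries and groups that do not overlap, the 6 largest rises included photoprotective proteins and regulators of stress, defence and iron uptake. *ELIP1* (AT3G22840), an early light-induced protein that protects the photosynthetic membranes, had 109.6, 129 and 247 FPKM in *tmt2-L-Suc*, against 3.34, 0.91 and 0.45 FPKM in WT-Suc (log2FC 6.68, SE 0.67, adjusted p = 0.000254). Its paralogue *ELIP2* had 259, 289.5 and 407 FPKM in *tmt2-L-Suc*, against 28.3, 3.79 and 7.93 FPKM in WT-Suc (log2FC 4.60, SE 0.63). All *tmt2-L-Suc* libraries were thus above all WT-Suc libraries for both genes, and WT-Suc replicate 1 was the highest of its group. *MYB15*, a regulator of cold and defence responses, had 20.8, 6.81 and 15.97 FPKM in *tmt2-L-Suc*, against 0.55, 0.17 and 0.25 FPKM in WT-Suc (log2FC 5.41, SE 0.57). The others of the 6 were *LOX4*, *BHLH38* and the uncharacterized *AT2G14247* (log2FC 5.19), of which the first 2 are described below with their pathways. *CYP706A2*, a cytochrome P450, had 156, 40 and 70 counts in *tmt2-L-Suc* and at most 2 in a WT-Suc library, and was at least 29.5-fold higher (mean of *tmt2-L-Suc* over 3 counts per library). By the smallest p among the rises with more than 3 counts in each library, the leading genes were *AT5G38700*, *AT3G27400* (a pectin lyase-like protein), *AT2G25460* and *ENODL9*, an early nodulin-like protein with 23.3 to 27.9 FPKM in *tmt2-L-Suc* and 7.01 to 8.91 in WT-Suc (log2FC 1.66, SE 0.16, adjusted p = 0.000224).

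The 6 largest falls, chosen in the same way, came from a run of neighbouring genes, a sulfotransferase and an auxin-induced gene among others. *AT4G22505*, which encodes a protein of the lipid-transfer and seed-storage albumin superfamily, had 1.34, 0.88 and 0.71 FPKM in *tmt2-L-Suc*, against 103, 32.8 and 22.8 FPKM in WT-Suc (log2FC -5.75, SE 0.59, adjusted p = 0.000264). It stands in a stretch of chromosome 4 in which 5 tested neighbours of the same family, from *AT4G22485* to *AT4G22517*, were all DEGs in the same direction (log2FC -5.75 to -2.63). These genes are similar copies, so RSEM may have divided shared reads between them. *ST2A*, a sulfotransferase that acts on hydroxyjasmonate, had 0.32, 0.34 and 0.12 FPKM in *tmt2-L-Suc*, against 4.66, 12.5 and 7.23 FPKM in WT-Suc (log2FC -4.99, SE 0.80). *MLP34* (log2FC -3.91) and *SAUR22* (log2FC -3.85) completed the 6. *RTFL21* had 3, 1 and 0 counts in *tmt2-L-Suc* and 36, 75 and 34 in WT-Suc, and was at least 16.1-fold lower. *AT4G35810*, a 2-oxoglutarate-dependent oxygenase, had the smallest p of the falls with more than 3 counts in each library, with 0.71, 0.72 and 0.70 FPKM in *tmt2-L-Suc* and 5.37, 6.79 and 5.06 FPKM in WT-Suc (log2FC -3.02, SE 0.21, adjusted p = 2.68e-05). It was followed by *AT5G38930*, a cupin (log2FC -3.47, SE 0.29), and by *AT2G15880*, a leucine-rich repeat protein with 3.95 to 8.08 FPKM in *tmt2-L-Suc* and 42.9 to 69.3 in WT-Suc (log2FC -3.27, SE 0.29).

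The most abundant DEGs included genes of the chloroplast and of dormancy. *FD1*, a ferredoxin, the electron carrier at the end of photosynthetic electron transport, had 2158, 2379.7 and 2475 FPKM in *tmt2-L-Suc*, against 1279.8, 799 and 763 FPKM in WT-Suc (log2FC 1.3, SE 0.28, adjusted p = 0.00823). *RPL12-A*, a ribosomal protein, had 1606 to 1701 FPKM in *tmt2-L-Suc* and 444 to 1008 in WT-Suc (log2FC 1.35, SE 0.27). In both genes WT-Suc replicate 1 was the nearest to the mutant libraries. The most abundant falls were those of *AT5G16030* (log2FC -1.44), of *DIN1*, of *AT1G56220*, a dormancy and auxin associated protein (-1.32), and of *AT3G15450* (-1.73, a call that was lost without WT-Suc replicate 2 or *tmt2-L-Suc* replicate 1 or 3). Among genes with at most 3 counts in each library of a group, *AT5G52020*, *GRX480* and *AT1G26790* were at least 11.4-fold, 10.8-fold and 9.11-fold higher. *AT1G26790* had 5, 19 and 58 counts in *tmt2-L-Suc* and 2, 0 and 3 in WT-Suc, and its call was lost without WT-Suc replicate 2 or *tmt2-L-Suc* replicate 3. In the other direction, *PER1*, a peroxiredoxin of seeds, *AT5G23240* and *AT2G28490* were at least 15.1-fold, 13.7-fold and 13.2-fold lower. *AT2G28490* had 0, 0 and 1 counts in *tmt2-L-Suc* and 0, 110 and 9 in WT-Suc, so its groups overlapped, and its call was lost without WT-Suc replicate 2 or any of the mutant libraries.

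**Figure D2:**
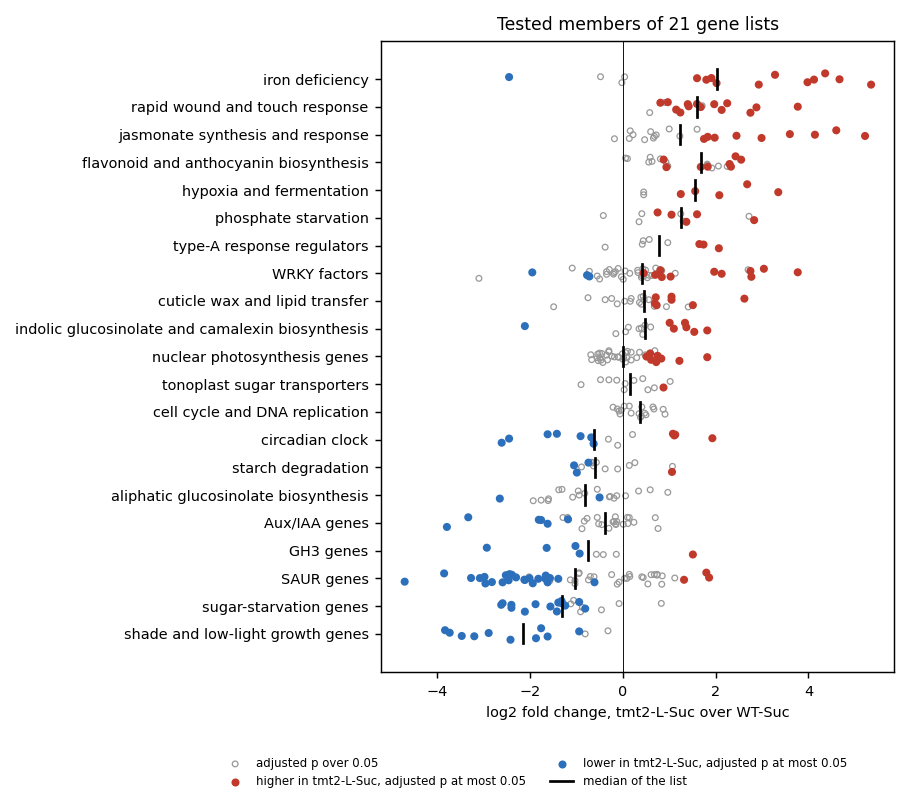
The log2FC of *tmt2-L-Suc* over WT-Suc (horizontal axis) is plotted for every tested member of 21 gene lists (vertical axis), with changed members filled, red where higher and blue where lower, and a bar at the median of each list. Medians run from 2.02 for the iron-deficiency genes to -2.15 for the shade and low-light growth genes, a list drawn up after its values were seen, against -0.02 over all genes tested.

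Genes that plants raise when sugar is short were lower in *tmt2-L-Suc*. Of 21 sugar-starvation genes, 14 fell, 12 of them as DEGs, and none rose, a changed share of 66.7% against 20.5% of all genes tested. The median log2FC was -1.31, against -0.02 over all genes tested. *DIN1*, a dark-inducible gene of chloroplasts also known as *SEN1*, had 213, 122 and 77.4 FPKM in *tmt2-L-Suc*, against 443, 1017 and 603 FPKM in WT-Suc (log2FC -2.40, SE 0.57, adjusted p = 0.0120). *ASN1* (*DIN6*), the asparagine synthetase that is raised in the dark, had 48.2, 47.1 and 14.1 FPKM in *tmt2-L-Suc*, against 243, 277 and 139 FPKM in WT-Suc (log2FC -2.59, SE 0.60). For both genes *tmt2-L-Suc* replicate 3 was the lowest library and the groups did not overlap. *DRM1*, which marks dormant and starved tissue, had 52.8 to 149 FPKM in *tmt2-L-Suc* and 322 to 649.99 in WT-Suc (log2FC -2.40, SE 0.40). Some enzymes that break down branched-chain amino acids fell with them: *BCAT2* (log2FC -2.62), *MCCA* (-1.88), *DIN4* (-1.24) and *IVD* (-0.94). *DIN3* (-0.46), *MCCB* (-0.91) and *ETFQO* (-0.87) of the same breakdown did not pass the test. The calls of *BCAT2*, *DIN4* and *IVD* were lost without WT-Suc replicate 2 or *tmt2-L-Suc* replicate 2 or 3. *BZIP1*, a transcription factor of the starvation response, also fell (log2FC -1.56). The class II trehalose phosphate synthases *TPS8*, *TPS9* and *TPS10* were lower too (-1.31, -0.81 and -1.39). Each of the 6 fits that left out 1 library called *ASN1*, *DRM1*, *DIN11*, *BZIP1* and *MCCA*, and the number of falls in the list was 5 without WT-Suc replicate 2 and 5 without *tmt2-L-Suc* replicate 3. In WT-Suc against the WT without sucrose, *DIN1*, *ASN1*, *DRM1* and *BCAT2* did not pass edgeR's test (log2FC 0.60, 0.17, 0.62 and -0.17, adjusted p of 0.39 or more). What the falls in *tmt2-L-Suc* say about sugar status was not tested.

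The 120 bases upstream of *DIN1* and a 120-base stretch upstream of *ASN1* are shown because both genes fell together and their promoters hold the letters GATAAG, the core of the I-box, here in capitals on either strand (TAIR10.1, 5′ to 3′ in the direction of the gene). *DIN1* is given from chr4:16944758-16944877 on the plus strand and *ASN1* from chr3:17441483-17441602 on the minus strand.
DIN1: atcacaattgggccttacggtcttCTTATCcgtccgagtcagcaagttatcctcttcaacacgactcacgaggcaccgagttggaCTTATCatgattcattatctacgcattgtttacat
ASN1: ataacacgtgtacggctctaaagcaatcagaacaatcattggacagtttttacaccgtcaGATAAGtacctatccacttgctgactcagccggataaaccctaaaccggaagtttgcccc
*DIN1* holds 3 matches in the 500 bases before its annotated start, at 340, 96 and 35 bases, and *ASN1* holds 2. GATAAG, picked after the values were seen, is found on either strand in the 500 bases before 14 of the 21 sugar-starvation genes (66.7%). It is found before 29.3% of the DEGs that were lower, 18.4% of those that were higher and 22.7% of 18501 promoters of tested genes of that length. A match describes the sequence and was not tested as a binding site.

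Of the carbohydrate lists, those of sucrose cleavage and starch synthesis had fewer changed members than all genes tested (16.7% and 12.5%, against 20.5%). *SUC1* and *SUC5*, proton-coupled sucrose importers of the plasma membrane, rose: *SUC1* had 39.5, 24.8 and 31.7 FPKM in *tmt2-L-Suc*, against 11.8, 10.9 and 16.6 FPKM in WT-Suc (log2FC 1.24, SE 0.31, adjusted p = 0.0164), and *SUC5* had a log2FC of 1.93. *SWEET1*, a plasma membrane glucose facilitator, also rose (log2FC 0.78), and the other 11 tested transporters outside the tonoplast list did not change. Of 12 tested genes of sucrose cleavage and hexokinases, the cell wall invertase *ATBFRUCT1* (log2FC 1.46) and the sucrose synthase *SUS6* (log2FC 2.19) rose, with *SUS6* below 1 FPKM in every library. *GPT2*, a plastid glucose phosphate importer that is raised by sugar, had 1.44, 0.48 and 4.18 FPKM in *tmt2-L-Suc*, against 0.30, 0.31 and 0.34 FPKM in WT-Suc (log2FC 2.62, SE 0.86, adjusted p = 0.0475). The mutant libraries spread widely but all lay above the WT-Suc libraries, and the call was lost without any one library except *tmt2-L-Suc* replicate 2. Of 16 genes of starch synthesis and its supply, *GPT2* and *APS1* rose and none fell. *APS1*, the small subunit of ADP-glucose pyrophosphorylase in starch synthesis, had 154 to 159 FPKM in *tmt2-L-Suc* and 74.3 to 117 in WT-Suc (log2FC 0.80, SE 0.18). Of 14 tested genes of starch degradation, 3 fell: *GWD1*, which phosphorylates starch (log2FC -1.05, SE 0.18), *DPE1*, the plastid disproportionating enzyme (-0.99, SE 0.15), and *AT3G29320*, annotated as a glucan phosphorylase (-0.74). The beta-amylase gene *AT3G23920* rose (log2FC 1.06), so the changed share of that list was 28.6%. The falls of *GWD1*, *DPE1* and *AT3G29320* held in each fit that left out 1 library, whereas without WT-Suc replicate 2 none of the rises named in this paragraph passed except that of *SUS6*.

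Genes of iron shortage formed the group with the largest rises. In plants, bHLH38, bHLH39, bHLH100 and bHLH101 are closely related transcription factors that rise when iron is scarce and switch on its uptake, PYE and BTS adjust that response, OPT3 moves iron in the phloem, and the ferritin FER1 stores iron and rises when it is plentiful. Of 15 iron-deficiency genes, 11 rose, all as DEGs, 1 fell and 3 (*FRO3*, *FER3* and *FER4*) did not pass the test, with a median log2FC of 2.02. The changed share was 80%, against 20.5% of all genes tested. *BHLH38* (AT3G56970) had 11.4, 25.2 and 16.4 FPKM in *tmt2-L-Suc*, against 0.97, 0.67 and 0.42 FPKM in WT-Suc (log2FC 4.67, SE 0.64, adjusted p = 0.000965). Its neighbour on chromosome 3, *BHLH39*, had 11.6, 20.8 and 12.8 FPKM in *tmt2-L-Suc*, against 0.83, 0.05 and 0.21 FPKM in WT-Suc (log2FC 5.35, SE 0.70). In both genes the lowest mutant library was more than 10 times the highest WT-Suc library, and *tmt2-L-Suc* replicate 2 was the highest. *BHLH100* (log2FC 3.28) and *BHLH101* (2.93) rose with them. *PYE* had 41.1, 40.4 and 33.5 FPKM in *tmt2-L-Suc*, against 11.5, 8.50 and 8.49 FPKM in WT-Suc (log2FC 2.02, SE 0.29). *OPT3* (log2FC 1.80), *BTS* (1.60) and the nicotianamine synthase *NAS4* (1.91) were also higher. The members known in the files only by their identifiers, *AT1G47400*, *AT1G47395* and *AT2G30766*, had log2FC of 4.36, 3.98 and 4.12. *FER1* went the other way, with 53.7, 52.5 and 45.2 FPKM in *tmt2-L-Suc*, against 184, 354 and 269 FPKM in WT-Suc (log2FC -2.45, SE 0.36, adjusted p = 0.00122). The root iron importer *IRT1*, listed among the root genes, had 0 FPKM in the 3 *tmt2-L-Suc* libraries and in 2 of the 3 WT-Suc libraries and was not called. Of the 11 rises, 9 held in each fit that left out 1 library, and so did the fall of *FER1*.

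These levels were set beside those of the groups without sucrose. *BHLH38* averaged 0.390 FPKM in *tmt2-S* and 0.907 FPKM in the WT, and *AT2G30766* averaged 99.8 FPKM in *tmt2-L-Suc* against 7.13 FPKM in WT-Suc, and 3.40 FPKM in *tmt2-S* against 31.4 FPKM in the WT. *FER1* averaged 50.4 FPKM in *tmt2-L-Suc* against 269 FPKM in WT-Suc, and 590.0 FPKM in *tmt2-S* against 117 FPKM in the WT. In *tmt2-S*/WT, which shares no library with *tmt2-L-Suc*/WT-Suc, 2 members rose and 5 fell, and the median log2FC was -1.28. The difference between both genotype contrasts was 6.92 on the log2 scale for *AT1G47400* (SE 0.69, adjusted p = 5.84e-05 from edgeR's interaction contrast) and -4.78 for *FER1*, and it includes the age of *tmt2-S*. The stretches of promoter below show the letters CACGTG (a G-box, bound by many bHLH proteins) in capitals for *BHLH38* and *ELIP1*, as genes with large rises. *BHLH38* is given from chr3:21085283-21085402 on the minus strand. *ELIP1*, which is not in the iron-deficiency list, is given from chr3:8085676-8085795 on the minus strand.
BHLH38: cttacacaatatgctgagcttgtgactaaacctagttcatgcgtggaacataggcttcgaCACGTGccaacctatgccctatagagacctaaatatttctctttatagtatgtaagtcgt
ELIP1: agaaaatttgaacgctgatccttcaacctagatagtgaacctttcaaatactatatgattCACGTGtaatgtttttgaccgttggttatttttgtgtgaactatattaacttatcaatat
The match lies 97 bases before the annotated start of *BHLH38* and 66 before that of *ELIP1*. CACGTG is in the 500 bases before 6 of the 15 iron-deficiency genes (40%), 13.1% of the DEGs that were higher, 13.4% of those that were lower and 10.4% of all promoters of that length.

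**Figure D3:**
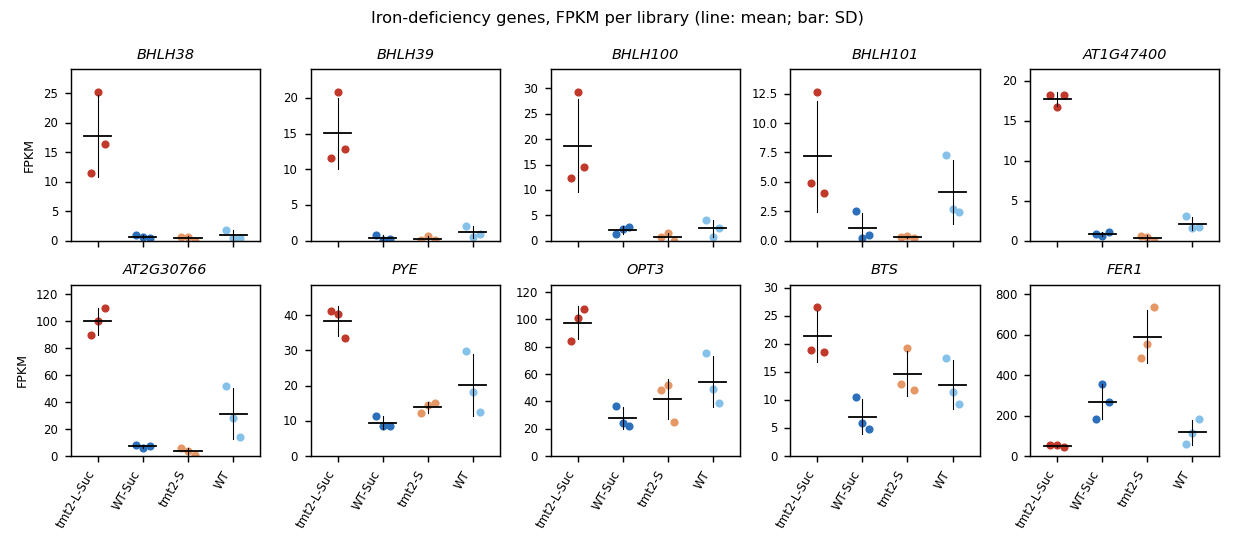
FPKM (vertical axes, from 0) of 10 iron-deficiency genes in each library of *tmt2-L-Suc*, WT-Suc, *tmt2-S* and the WT (horizontal axes), with the mean as a line and the SD as a bar (n = 3). All *tmt2-L-Suc* libraries were above all WT-Suc libraries for the first 9 genes and below them for *FER1*.

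Rapid wound and touch genes rose together in *tmt2-L-Suc*. These genes encode transcription factors and calcium-binding proteins whose mRNAs appear within minutes of wounding, touch or pathogen signals. Of 17 members, 14 rose, 11 of them as DEGs, and none fell (median log2FC 1.60). The changed share was 82.4%, against 20.5% of all genes tested. *WRKY46* had 44.6, 18.7 and 29.7 FPKM in *tmt2-L-Suc*, against 2.71, 0.96 and 2.95 FPKM in WT-Suc (log2FC 3.77, SE 0.41, adjusted p = 0.000311). *RRTF1*, an ethylene-response factor of redox signalling, had 32.6, 21.5 and 21.9 FPKM in *tmt2-L-Suc*, against 5.83, 1.78 and 2.60 FPKM in WT-Suc (log2FC 2.88, SE 0.39). *ZAT10*, a zinc-finger repressor of stress responses, had 133 to 224 FPKM in *tmt2-L-Suc* and 23.6 to 49.2 in WT-Suc (log2FC 2.25, SE 0.27). The groups did not overlap in these genes, and *tmt2-L-Suc* replicate 1 was the highest library in each. *WRKY46*, *RRTF1* and *ZAT10* averaged 31.0, 25.3 and 164 FPKM in *tmt2-L-Suc* and 2.21, 3.40 and 34.0 FPKM in WT-Suc. In the WT without sucrose they averaged 8.71, 26.9 and 102 FPKM, so *RRTF1* was about as high there as in *tmt2-L-Suc*. *WRKY53* (log2FC 2.75), *WRKY40* (2.13), *WRKY33* (1.97), *SZF1* (1.68), *ZAT12* (1.60) and the calmodulin-like touch gene *TCH2* (1.4) moved with them. Of all 46 tested WRKY factors, 11 rose and 3 fell, a changed share of 30.4% against 20.5% of all genes tested. Among the rises were *WRKY48* (3.04) and *WRKY18* (2.77). The largest fall was that of *WRKY65* (-1.95), which was lost without *tmt2-L-Suc* replicate 3. With 1 library left out, the WRKY rises numbered 7 (without WT-Suc replicate 2) to 13 and the falls 0 (without *tmt2-L-Suc* replicate 3) to 5, both highest without WT-Suc replicate 1. The 10 rises of the wound list that held in each fit without 1 library include every member of that list with a value above. How the seedlings were handled at harvest is not given in the sources used here, and its part in these values was not tested.

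Jasmonate genes rose as well. Jasmonate, a lipid hormone of wounding, is made by lipoxygenases and allene oxide enzymes, and its JAZ repressors are themselves induced by it. Of 21 tested members of the list, 9 rose, all as DEGs, and none fell (median log2FC 1.23). The changed share was 42.9%, against 20.5% of all genes tested. *LOX4*, a 13-lipoxygenase, had 19.4, 10.02 and 17.8 FPKM in *tmt2-L-Suc*, against 0.39, 0.12 and 0.71 FPKM in WT-Suc (log2FC 5.22, SE 0.61, adjusted p = 0.00043). *LOX3* (log2FC 2.99) and the allene oxide cyclase *AOC3* (3.60) rose with it. *ST2A*, the sulfotransferase of hydroxyjasmonate named above, is not in the list and fell (log2FC -4.99). Among the repressors, *JAZ8*, *JAZ5*, *JAZ1*, *JAZ7* and *JAZ10* had log2FC of 4.60, 4.14, 2.45, 1.98 and 1.83, and *MYC2*, the transcription factor that they bind, had 24.6 to 30.3 FPKM in *tmt2-L-Suc* and 4.79 to 12.9 in WT-Suc (log2FC 1.75, SE 0.28). *tmt2-L-Suc* replicate 2 was the lowest library of its group in each of these JAZ genes except *JAZ7*, as it was in *LOX4* and *AOC3*. Without sucrose, 2 members rose and 6 fell in *tmt2-S*/WT. *LOX4* averaged 22.7 FPKM in *tmt2-S* and 6.49 FPKM in the WT, so WT-Suc (0.41 on average) was the lowest of the 4 groups. Of 11 tested genes of salicylic acid, the hormone of defence against biotrophs, 5 rose, a changed share of 45.5%. They were led by *SARD1*, *CBP60G* (log2FC 1.45), *EDS5* (1.42) and *EDS1* (1.18, SE 0.18, adjusted p = 0.00169). *SARD1* had 28, 4 and 24 counts in *tmt2-L-Suc* and 0, 2 and 0 in WT-Suc, and was at least 6.22-fold higher. The call of *EDS5* was lost in each fit that left out 1 library, and that of *SARD1* in each except the one without *tmt2-L-Suc* replicate 2. Those of *EDS1* and *CBP60G* held in each such fit.

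Flavonoid genes were higher in *tmt2-L-Suc*, whereas photosynthesis genes as a list were not. Flavonoids and anthocyanins are phenolic pigments that accumulate under high light and high sugar. Of 21 tested flavonoid genes, 8 rose and none fell, all 21 had a log2FC above 0, and the median was 1.68. The changed share was 38.1%, against 20.5% of all genes tested. *CHS*, chalcone synthase at the head of the pathway, had 99.7, 149 and 182 FPKM in *tmt2-L-Suc*, against 51.9, 27.8 and 40.7 FPKM in WT-Suc (log2FC 1.83, SE 0.35, adjusted p = 0.00457). *FLS1*, flavonol synthase, had 8.22, 13.8 and 17.61 FPKM in *tmt2-L-Suc*, against 3.22, 1.59 and 2.45 FPKM in WT-Suc (log2FC 2.43, SE 0.46). In both, the groups did not overlap and *tmt2-L-Suc* replicate 1 was the lowest of its group. *CHI* (log2FC 1.68), *4CL3* (2.33) and the glutathione transferase *TT19*, which is needed to store anthocyanin in the vacuole (2.3), were also higher, and *4CL3*, *CHS*, *CHI* and *FLS1* were called in each fit that left out 1 library. Of 39 nuclear genes of photosynthesis, 8 rose and none fell, a share of 20.5% that equals that of all genes tested; 19 had a log2FC above 0 and 20 below. Without WT-Suc replicate 2 or 3 only 1 of them was called higher, and without WT-Suc replicate 1 the calls were 9 higher and 8 lower. *RBCS1B*, a small subunit of Rubisco, had 7273, 8612 and 10944 FPKM in *tmt2-L-Suc*, against 4898, 2978 and 3597 FPKM in WT-Suc (log2FC 1.22, SE 0.35, adjusted p = 0.0272). This call was lost without WT-Suc replicate 2 or 3 or *tmt2-L-Suc* replicate 2 or 3, and the gene is 1 of several near-identical copies. The rise of the light-harvesting gene *LHCB4.3* held in each such fit (60.03 to 72.9 FPKM in *tmt2-L-Suc* and 13.04 to 30.3 in WT-Suc, log2FC 1.82). Of the protochlorophyllide oxidoreductases, which make chlorophyll in the light, *PORB* fell, with 111, 96.1 and 90.9 FPKM in *tmt2-L-Suc*, against 315, 222 and 223 FPKM in WT-Suc (log2FC -1.37, SE 0.15, adjusted p = 0.000311), and *PORA* had 12, 11 and 14 counts in *tmt2-L-Suc* and 1, 2 and 3 in WT-Suc, at least 4.11-fold higher. *HEMA1*, which starts tetrapyrrole synthesis, fell too (log2FC -1.08, SE 0.19).

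Genes of auxin-driven elongation were lower in *tmt2-L-Suc*. SAUR genes are small genes that auxin and phytochrome-interacting factors induce in elongating hypocotyls and petioles, Aux/IAA genes encode repressors that auxin induces, GH3 enzymes conjugate auxin, and YUC enzymes make it. Of 54 tested SAUR genes, 24 fell, 3 rose and 27 did not pass the test (median log2FC -1.03). The changed share was 50%, against 20.5% of all genes tested. *SAUR22* (AT5G18050) had 1.5, 3.75 and 2.26 FPKM in *tmt2-L-Suc*, against 19.3, 50.5 and 37.2 FPKM in WT-Suc (log2FC -3.85, SE 0.47, adjusted p = 0.000494). *SAUR19*, whose protein promotes cell expansion, had 2.23, 2.99 and 2.96 FPKM in *tmt2-L-Suc*, against 16.2, 29.1 and 18.3 FPKM in WT-Suc (log2FC -2.98, SE 0.39). WT-Suc replicate 2 was the highest library for both and WT-Suc replicate 1 the lowest of its group, still above every mutant library. The falls lay in clusters of similar copies, such as *SAUR61* to *SAUR65* on chromosome 1 (log2FC -2.39 to -1.57) and *SAUR26* to *SAUR29* on chromosome 3 (-2.96 to -2.44), within which reads may be shared. *SAUR48* (log2FC 1.86), *SAUR79* (1.80) and *SAUR6* (1.32) were the 3 that rose. Of the 24 falls, 21 held in each fit that left out 1 library.

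Of 28 tested Aux/IAA genes, 6 fell and none rose, a share of 21.4% against 20.5% of all genes tested. The falls numbered between 3 (without *tmt2-L-Suc* replicate 3) and 11 (without WT-Suc replicate 1) when 1 library was left out, and *IAA3*, *IAA29* and *IAA4* were called in each fit. *IAA29* had 12.2, 9.17 and 6.07 FPKM in *tmt2-L-Suc*, against 41.2, 106 and 116 FPKM in WT-Suc (log2FC -3.33, SE 0.55, adjusted p = 0.00225), with *IAA34* (-3.79, lost without *tmt2-L-Suc* replicate 3), *IAA4* (-1.76) and *IAA3* (-1.62) among the others. *GH3.1*, *GH3.3*, *GH3.2* and *GH3.5* fell and *GH3.9* rose (log2FC 1.51). The calls of *GH3.2*, *GH3.5* and *GH3.9* held in each fit that left out 1 library, whereas *GH3.1* and *GH3.3* lost theirs without WT-Suc replicate 2 or *tmt2-L-Suc* replicate 3 (*GH3.3* also without WT-Suc replicate 3 or *tmt2-L-Suc* replicate 2), and the groups overlapped in *GH3.3*. Among genes of auxin synthesis, *YUC8* had 1.82, 2.27 and 1.48 FPKM in *tmt2-L-Suc*, against 5.2, 11.2 and 11.8 FPKM in WT-Suc (log2FC -2.37, SE 0.55), and *YUC9* (-2.10) and *YUC2* (-1.57) fell with it. *TAA1*, the enzyme of the step before the YUC enzymes, moved the other way, with 17.7, 12.2 and 16.6 FPKM in *tmt2-L-Suc*, against 8.26, 4.26 and 4.69 FPKM in WT-Suc (log2FC 1.41, SE 0.22, adjusted p = 0.00175). The rise of *TAA1* held in each fit that left out 1 library, and without *tmt2-L-Suc* replicate 3 none of the falls of the YUC genes passed.

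A list of 12 genes of shade and low light was drawn up after their values had been seen, so its count describes the choice. Of these, 10 fell and none rose. *HB-2* (*ATHB2*, AT4G16780), a homeodomain gene that rises in shade, had 14.7, 19.96 and 16.1 FPKM in *tmt2-L-Suc*, against 78.5, 383 and 239.9 FPKM in WT-Suc (log2FC -3.83, SE 0.53, adjusted p = 0.00102). *HFR1* and *PAR1*, which restrain the shade response, had log2FC of -3.73 and -3.20, and *PIL1* one of -3.47. WT-Suc replicate 1 was the lowest WT-Suc library for each of these genes. *PIF7*, a phytochrome-interacting factor of shade and heat, stood in the study's list of TOR pathway genes and was its 1 changed member of 15 tested, higher in *tmt2-L-Suc* (25.4 to 44.5 FPKM against 13.4 to 22.5 FPKM in WT-Suc, log2FC 1.03, adjusted p = 0.0162), a call that was lost without WT-Suc replicate 2 or 3 or *tmt2-L-Suc* replicate 2.

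Morning genes of the circadian clock were higher in *tmt2-L-Suc*, and several day and evening genes were lower. The plant clock is a loop of morning genes (*LHY*, *CCA1*, *RVE8*), day genes (the PRR genes) and evening genes (*TOC1*, *GI*, *ELF3*, *ELF4*, *LUX*), each peaking at its own hour. Of 15 clock genes, 4 rose and 7 fell, a changed share of 73.3% against 20.5% of all genes tested. *LHY* had 81.4, 115 and 114 FPKM in *tmt2-L-Suc*, against 24.2, 20.95 and 31.3 FPKM in WT-Suc (log2FC 1.93, SE 0.21, adjusted p = 0.000311). *CCA1* (log2FC 1.11), *RVE8* (1.08) and their co-activator *LNK1* (1.13) were also higher. *LHY*, *CCA1*, *RVE8* and *LNK1* averaged 103, 86.6, 42.0 and 18.0 FPKM in *tmt2-L-Suc* and 25.5, 39.9, 19.4 and 8.19 FPKM in WT-Suc. In the WT without sucrose they averaged 58.3, 87.4, 37.1 and 18.5 FPKM. *PRR5* had 0.74, 0.83 and 0.50 FPKM in *tmt2-L-Suc*, against 6.0, 3.10 and 2.27 FPKM in WT-Suc (log2FC -2.45, SE 0.41). The evening genes *ELF4*, *LUX* and *ELF3* had log2FC of -1.42, -0.68 and -0.63, and the blue-light receptor *FKF1* one of -1.62. *GRP7*, an RNA-binding protein under clock control that peaks in the evening, had 42.9, 32.7 and 34.0 FPKM in *tmt2-L-Suc*, against 275, 167 and 178 FPKM in WT-Suc (log2FC -2.61, SE 0.37, adjusted p = 0.00109). *TOC1* (log2FC -0.31), *GI* (-0.62), *LNK2* (-0.11) and *PRR9* (0.21) did not pass the test. *CCA1*, *LHY*, *RVE8*, *PRR5*, *LUX*, *FKF1* and *GRP7* were called in each fit that left out 1 library, whereas *ELF4* lost its call in each of them. The harvest hour of the libraries is not given in the sources used here, these values move with the groups, and the part of the clock in the other gene groups was not tested.

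The upstream sequences of *GRP7* (chr2:9266558-9266677, minus strand) and *PRR5* (chr5:8358674-8358793, minus strand) are shown because they hold the evening element, AAAATATCT, in capitals on either strand, and both genes fell.
GRP7: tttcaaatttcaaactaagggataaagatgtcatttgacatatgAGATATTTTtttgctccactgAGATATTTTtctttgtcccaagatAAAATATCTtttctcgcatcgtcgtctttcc
PRR5: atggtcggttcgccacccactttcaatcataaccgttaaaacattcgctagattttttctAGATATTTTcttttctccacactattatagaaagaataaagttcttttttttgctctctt
*GRP7* has 3 matches at 76, 55 and 31 bases before its annotated start, and *PRR5* has 2 in the 500 bases before its start, of which 1 is shown. The evening element is in the 500 bases before 5 of the 15 clock genes (33.3%), 9.46% of the DEGs that were lower, 4.92% of the DEGs that were higher and 4.48% of all promoters of that length.

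**Figure D4:**
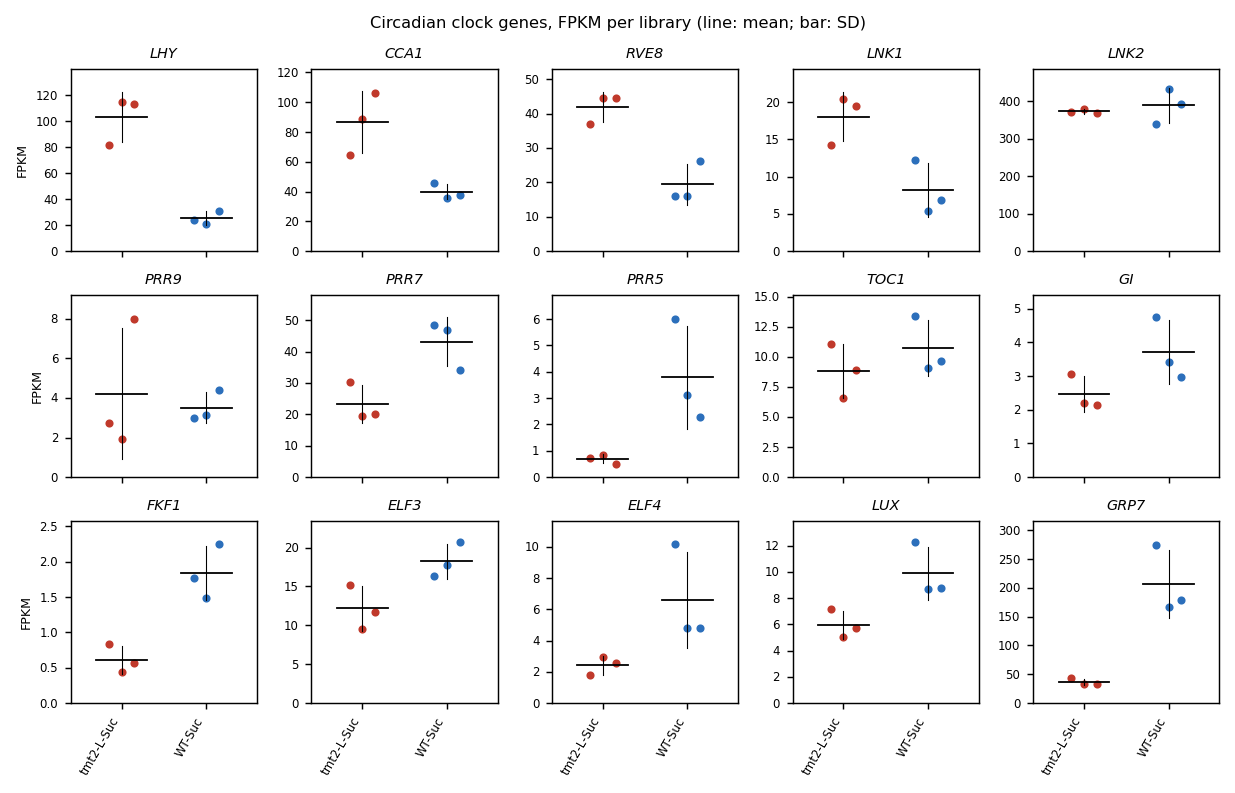
FPKM (vertical axes, from 0) of the 15 clock genes in each library of *tmt2-L-Suc* and WT-Suc (horizontal axes), with the mean as a line and the SD as a bar (n = 3). The morning genes *LHY*, *CCA1* and *RVE8* were higher in every *tmt2-L-Suc* library than in any WT-Suc library, and *PRR5*, *LUX* and *GRP7* were lower.

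Genes of oxygen shortage, phosphate shortage and cytokinin response rose in part. Of 7 tested genes of hypoxia and fermentation, 5 rose, all as DEGs, a changed share of 71.4% against 20.5% of all genes tested. *HB1*, a class 1 haemoglobin, had 34.6, 6.02 and 31.1 FPKM in *tmt2-L-Suc*, against 3.01, 1.86 and 1.92 FPKM in WT-Suc (log2FC 3.35, SE 0.51, adjusted p = 0.00143). Pyruvate decarboxylase *PDC1* (log2FC 2.68) and alcohol dehydrogenase *ADH1* (1.56), the enzymes of ethanol fermentation, and the plant cysteine oxidases *PCO1* (2.08) and *PCO2* (1.25), which sense oxygen, were the others, and *tmt2-L-Suc* replicate 2 was the lowest of its group in all 5. *HB1*, *PCO1* and *PCO2* were called in each fit that left out 1 library. Of 11 tested genes of phosphate starvation, 5 rose and none fell, a changed share of 45.5%. The acid phosphatase *PAP17*, the non-coding RNA gene *AT4* and the transporter *PHT1;4* had log2FC of 2.83, 1.60 and 1.37. *SPX1* (1.05) and the sulfolipid synthesis gene *SQD1* (0.75) were the others, and of the 5 only *SQD1* held in each fit without 1 library. Of 8 tested type-A response regulators, which cytokinin induces, *ARR16*, *ARR7* and *ARR15* rose (log2FC 2.07, 1.74 and 1.65), a changed share of 37.5%. Of these, *ARR16* held in each such fit. Of 11 tested genes of nitrate assimilation, 9 did not change, so the changed share was below the 20.5% of all genes tested. The plastid glutamine synthetase *GLN2* rose (log2FC 0.76) and the glutamate dehydrogenase *GDH2*, which releases carbon from amino acids, fell (-1.39). The call of *GLN2* was lost without WT-Suc replicate 2 or 3 or *tmt2-L-Suc* replicate 2 or 3. That of *GDH2* was lost without WT-Suc replicate 2 or *tmt2-L-Suc* replicate 2 or 3.

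Some genes of secondary products and the cell surface differed as well. Indolic glucosinolates are tryptophan-derived defence compounds, and 6 of 15 tested genes of that pathway rose, among them *CYP79B2*, which makes indole-3-acetaldoxime, with 15.3, 14.3 and 15.6 FPKM in *tmt2-L-Suc*, against 6.5, 2.60 and 3.55 FPKM in WT-Suc (log2FC 1.82, SE 0.41, adjusted p = 0.0103), and its regulator *MYB34* (1.54). *CYP81F4* fell (-2.11). Without WT-Suc replicate 2, none of the 6 rises passed, and the fall of *CYP81F4* did. Of 21 genes of aliphatic glucosinolates, which derive from methionine, 2 fell, *BCAT4* (log2FC -2.65) and *IIL1* (-0.50), and none rose, and neither call held without WT-Suc replicate 2. *LTP2*, a lipid transfer protein of the epidermis, had 1032, 576 and 1399 FPKM in *tmt2-L-Suc*, against 196, 170.3 and 110.2 FPKM in WT-Suc (log2FC 2.62, SE 0.32, adjusted p = 0.000509). It was 1 of 7 genes of wax and lipid transfer that rose, of 24 tested, and the only one of them called in each fit that left out 1 library. The changed share of that list was 29.2%, against 20.5% of all genes tested. Of 44 tested expansins and XTH genes, which loosen the cell wall, 5 rose and 2 fell, a changed share of 15.9% against 20.5% of all genes tested, and the rises were 2 without WT-Suc replicate 2. *XTH19* had 34.2, 22.1 and 39.9 FPKM in *tmt2-L-Suc*, against 6.25, 3.21 and 2.86 FPKM in WT-Suc (log2FC 2.94, SE 0.42), and *XTH18* had a log2FC of 2.13. *TIP1;1*, the abundant water channel of the tonoplast, rose (log2FC 1.01, adjusted p = 0.0291), a call that was lost without WT-Suc replicate 2 or 3 or *tmt2-L-Suc* replicate 2 or 3. *XTH30* (-1.76) and *XTH5* (-1.32) were the falls of the cell wall list.

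Of 17 genes of oil mobilization, 2 rose and 2 fell, a changed share of 23.5% against 20.5% of all genes tested. The 2 that rose encode enzymes of the glyoxylate cycle, which turns fatty acid carbon into sugar. *ICL*, isocitrate lyase, had 64.1, 33.3 and 105 FPKM in *tmt2-L-Suc*, against 7.02, 7.80 and 5.06 FPKM in WT-Suc (log2FC 3.30, SE 0.52, adjusted p = 0.00169). *MLS*, malate synthase, had 7.78, 4.91 and 16.3 FPKM in *tmt2-L-Suc*, against 2.42, 3.51 and 1.71 FPKM in WT-Suc (log2FC 1.88, SE 0.39). Both held in each fit that left out 1 library. The acyl-CoA oxidase *ACX4* (-0.90) and the oil body lipase *SDP1* (-0.76) fell, but neither call held without WT-Suc replicate 2 or *tmt2-L-Suc* replicate 3, and that of *SDP1* held only without *tmt2-L-Suc* replicate 2. Of 6 tested genes of seed storage proteins and oil bodies, 4 fell, but these calls depended on WT-Suc replicate 2. The storage globulin gene *CRA1* had 0.38, 0.10 and 0.65 FPKM in *tmt2-L-Suc*, against 0.40, 66.6 and 5.72 FPKM in WT-Suc (log2FC -6.06, SE 1.4, adjusted p = 0.0110), and the groups overlapped. The groups did not overlap for *OLEO2*, an oleosin, with 0.07, 0.07 and 0.43 FPKM in *tmt2-L-Suc*, against 0.68, 11.03 and 2.18 FPKM in WT-Suc (log2FC -4.59). Without WT-Suc replicate 2, none of the falls in this list passed. The fall of *PER1*, a seed gene outside the list, held in each fit that left out 1 library.

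Other lists held few calls. None of 18 genes of the cell cycle and DNA replication changed (median log2FC 0.37). Of 28 tested heat shock and protein folding genes, 2 rose, *Hsp70-2* (log2FC 1.36) and *HSP90.7* (0.71), a share of 7.14%. Of 24 tested genes listed as vacuolar proton pumps and tonoplast channels, 2 rose and 2 fell. One of the falls is *TIP1* (AT5G20350), which entered the list by its symbol and encodes no channel, and the other is the seed aquaporin *TIP3;1*, with 0 FPKM in all *tmt2-L-Suc* libraries and 0.22, 1.74 and 0.87 FPKM in WT-Suc. Of 4 tested GASA peptides, *GASA6* fell (log2FC -0.71, adjusted p = 0.0337), and its call was lost in each fit that left out 1 library.

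Some genotype differences were found both with and without sucrose, in 2 comparisons that share no library and of which the one without sucrose includes age. Of the 1333 DEGs, 654 (49.1%) were also DEGs in *tmt2-S*/WT, which is 17.9% of the 3657 DEGs there, where 19.8% of the genes tested were DEGs (7.79% higher and 12% lower in *tmt2-S*). The direction was the same for 496, of which 267 were higher and 229 lower in both, and opposite for 158. Among these 496 genes, 311 had all 6 *tmt2* libraries beyond all 6 WT libraries, 151 above and 160 below them. Being called in both comparisons favours such a separation, and its share over all genes tested was not counted. *QQS* (AT3G30720, chromosome 3 from 12349047 to 12349933), a gene known only in *Arabidopsis thaliana* whose level affects the split of carbon between starch and protein, had 1.56, 0.34 and 0.42 FPKM in *tmt2-L-Suc*, against 49.4, 91.4 and 84.8 FPKM in WT-Suc (log2FC -6.62, SE 0.44, adjusted p = 2.68e-05). Without sucrose, it had 0.39, 0.33 and 0.35 FPKM in *tmt2-S*, against 32.9, 51.8 and 47.9 FPKM in the WT (log2FC -6.97). Every *tmt2* library was thus far below every WT library. *MRD1* (chromosome 1 from 19963047 to 19964712) had 0.05, 0.27 and 0.59 FPKM in *tmt2-L-Suc*, against 19.7, 32.1 and 34.96 FPKM in WT-Suc (log2FC -6.51, SE 0.48), and a log2FC of -4.87 in *tmt2-S*/WT. *AT4G35810* had a log2FC of -3.02 with sucrose and -2.63 without, and *AT5G38930*, a cupin, -3.47 and -2.90. Among the genes higher in both, *ELIP2* had 4.60 with sucrose and 4.33 without, *WRKY48* 3.04 and 3.86, the zinc-finger gene *ZAT7* 3.19 and 3.14, and *MYB74* 3.48 and 3.46. *QQS*, *MRD1*, *WRKY48*, *ZAT7* and *MYB74* were picked by their values in both comparisons, and all genes of this paragraph were called in each fit that left out 1 library with sucrose.

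**Figure D5:**
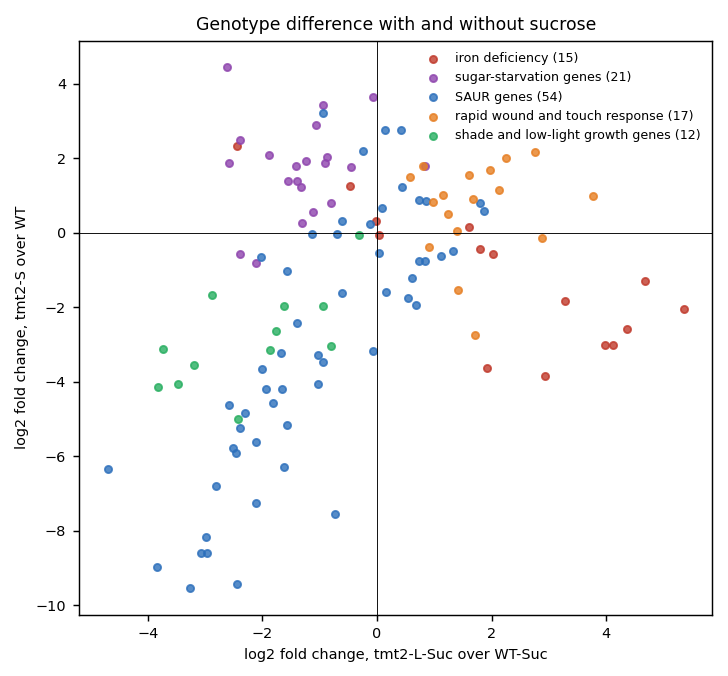
The log2FC of *tmt2-L-Suc* over WT-Suc (horizontal axis) is plotted against that of *tmt2-S* over the WT (vertical axis) for the tested members of 5 gene lists, coloured by list, with the number of genes in the legend. SAUR and shade genes that were lower with sucrose lie mostly in the lower left, and several iron-deficiency and sugar-starvation genes lie in the quadrants of opposite direction.

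The sugar-starvation genes moved in the opposite direction in the comparison without sucrose: 17 of 21 rose in *tmt2-S*/WT and none fell (median log2FC 1.80), whereas 14 fell with sucrose. *DIN1* averaged 138 FPKM in *tmt2-L-Suc* against 688 FPKM in WT-Suc, and 2540.0 FPKM in *tmt2-S* against 440.0 FPKM in the WT. Of the SAUR genes, 32 fell and 7 rose in *tmt2-S*/WT, the same main direction as with sucrose. *SAUR22* averaged 0.0367 FPKM in *tmt2-S* and 23.2 FPKM in the WT.

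The shares of changed genes and DEGs near *TMT2* lay around those of all genes tested. Within 100 kb on each side of it, 6 of 38 tested genes (15.8%) changed and 2 (5.26%) were DEGs. Within 250 kb, where the shares of the 4 distances examined were highest, 25 of 110 (22.7%) changed and 10 (9.09%) were DEGs. Within 500 kb, 47 of 221 (21.3%) changed and 18 (8.14%) were DEGs, and within 1000 kb 93 of 419 (22.2%) changed and 35 (8.35%) were DEGs, against 20.5% and 7.20% of all genes tested. *AT4G35810* and *DIN1* lie within the 250 kb, at chromosome 4 from 16968755 and from 16944878. The share of DEGs on the 5 chromosomes ran from 6.77% on chromosome 3 to 7.58% on chromosome 2.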

How the data were processed

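RNA of the above-ground tissue of 12 samples was sequenced on an MGISeq platform after poly(A) selection. The authors filtered reads, aligned them to TAIR10.1 with Bowtie2 and estimated expression with RSEM, and deposited, per gene and library, expected counts, which are not normalized, and FPKM values. The TPM and mean columns were not used here. Groups were taken from the labels. Expected counts were rounded and analysed in edgeR 4.0.16 (R 4.3.3): of 22953 genes, filterByExpr kept 18506, library sizes were scaled by TMM, and 1 quasi-likelihood model with 4 groups was fitted to the 12 libraries. *tmt2-L-Suc*/WT-Suc, *tmt2-S*/WT, their difference and WT-Suc/WT were two-sided contrasts, with Benjamini-Hochberg adjustment over all genes tested. An SE is that of the log2FC. The biological coefficient of variation was 0.209. On simulated counts, the fit recovered 190 of 200 changed genes with 7 false calls among 18280 genes. Whether these values hold for the DEGs reported here was not tested. Whether groups overlap was read from FPKM.

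The gene lists and the genes compared were chosen with earlier results of these data known, and the shade list and the motifs after the values were seen. Named genes are, among DEGs whose groups do not overlap and that have more than 3 counts in each of the 6 libraries, the 6 largest rises and falls, the 4 with the smallest p and the 4 with the highest FPKM in each direction, then the 4 in each direction with at most 3 counts throughout a group and the largest bound, and up to 4 changed members of each list in each direction. Further list members, *QQS*, *MRD1*, *ZAT7*, *MYB74* and the neighbouring genes are named beyond this rule. Alternatives were median-of-ratios scaling, DESeq2 1.42.0, no filter, at least 10 counts in each of the 6 libraries, the 6 libraries alone, a replicate block, a test against a minimum |log2FC| of 1.2, and leaving out libraries. Promoters were read from TAIR10.1 up to the annotated gene start.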

Additional observations from a re-analysis of the deposited data

Results flagged for a closer look

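Among the genes named by the rule in the methods, 17 were DEGs of opposite direction in *tmt2-L-Suc*/WT-Suc and in *tmt2-S*/WT, and the difference between both genotype contrasts passed an adjusted p of 0.05 (edgeR interaction contrast, 3 libraries in each of 4 groups). The genes were selected for opposite signs and the contrast includes the age of *tmt2-S*, so the values are a description. Higher with sucrose and lower without were *AT2G14247* (difference of log2FC 8.62, adjusted p = 0.000107), *AT2G30766* (7.14), *AT1G47400* (6.92), *HB1* (5.23), *PCO1* (4.17), *CYP79B2* (4.12), *MYB34* (3.76), *PHT1;4* (3.72) and *TAA1* (3.20, adjusted p = 6.3e-05). Lower with sucrose and higher without were *BCAT2* (-7.08, adjusted p = 0.00027), *DIN1* (-4.89), *FER1* (-4.78), *ASN1* (-4.46), *XTH30* (-3.92), *GDH2* (-3.89), *AT1G21680* (-3.47) and *AT3G15450* (-3.01, adjusted p = 0.00373). The iron, starvation and hypoxia members of this set belong to the lists described above, and no cause was tested.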

How the results depend on the processing

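The DEGs numbered 1333 in the reported fit and between 944 and 1436 under median-of-ratios scaling, DESeq2, no filter, at least 10 counts, the 6 libraries alone and the replicate block. The test against a minimum |log2FC| gave 162 DEGs, and there *TMT2* (log2FC 0.86) had an adjusted p of 1; the same 162 genes were those that changed. Leaving out 1 replicate number in all groups gave 608 to 1825 DEGs, 721 to 5112 changed genes and a log2FC of *TMT2* of 0.71 to 0.94, and leaving out 1 of the 6 libraries gave 830 to 1717, 1532 to 4763 and 0.55 to 1.06. Of single libraries, the lowest counts came without WT-Suc replicate 2 and the highest without WT-Suc replicate 1. *TMT2* lost its call without replicate 2 (adjusted p = 0.0942) or 3 (0.160) and without WT-Suc replicate 2 (0.109) or 3 (0.0795) or *tmt2-L-Suc* replicate 1 (0.0977) or 3 (0.0534); these fits have fewer samples. The replicate block gave 1272 DEGs, and the same-numbered libraries did not pair (correlations of their deviations -0.07, 0.00 and 0.19). Among the named genes other than *TMT2*, calls were lost for 1 of 161 under median-of-ratios scaling, 1 of 161 without the filter, 0 of the 122 that could be tested at 10 counts or more, 2 of 154 in the 6 libraries alone, 16 of 161 under the block, 1 of 159 in DESeq2 and 116 of 161 under the minimum |log2FC|. Leaving out replicate 1, 2 or 3 lost 11, 93 and 83 of them, and leaving out 1 library lost 12 (WT-Suc replicate 1) to 64 (WT-Suc replicate 2), with 59 without *tmt2-L-Suc* replicate 3, so that 40 of 162 named genes kept call and direction under every alternative run for them. *CDC20.1*, a cell cycle gene that was not called (log2FC -0.08), lay between -0.21 and 0.05 when a replicate number or library was left out, and was above 0 without replicate 2 (0.05), WT-Suc replicate 3 (0.03) and *tmt2-L-Suc* replicate 2 (0.02). At these depths, falls to 3 counts or fewer in a group (42 DEGs in *tmt2-L-Suc*) cannot be measured further.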
